A study of Homo sapiens with 12 samples.

Results

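Transcripts of the Hippo pathway and of genes driven by its effectors YAP and TAZ were followed through the libraries of a CD146 knockdown and a CD146 overexpression. The 36 genes were chosen by name, as Hippo kinases, their adaptors and upstream regulators, TEAD factors and known YAP/TAZ targets, and each matched 1 of the 61806 Ensembl gene IDs in the count table. They comprised 20 core members (7 of the kinase cassette, 7 upstream regulators and 6 nuclear effectors) and 16 targets. CD146 is a cell adhesion molecule of the immunoglobulin family, encoded by MCAM. Poly(A) RNA was sequenced in 12 libraries, in 4 groups of 3. One pair of groups, labelled Hep3B, carried a Tet-on inducible shRNA against CD146 or a Tet-on inducible control shRNA. The other pair were HepG2 cells that carried a CD146 vector or the pLVX vector alone. Hep3B and HepG2 are established human liver tumour lines, and for the libraries labelled Hep3B the hepatocyte markers go against the label, as given below. Libraries of each shRNA group are numbered 1 to 3 in their titles, and whether these numbers stand for replicates or for different hairpins is not given in the sources used here, nor are the dose and duration of induction or whether the HepG2 cells were a single clone. Nothing in the labels says that replicates came from separate cultures, so a p-value here compares a difference with the spread of libraries that may be technical replicates.

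In the Hippo pathway the kinases STK3 and STK4 (also called MST2 and MST1), with the scaffold SAV1, activate the kinases LATS1 and LATS2 and their cofactors MOB1A and MOB1B. LATS kinases phosphorylate YAP and TAZ, which then stay in the cytoplasm or are degraded, whereas unphosphorylated YAP and TAZ enter the nucleus and bind TEAD factors at genes such as CCN1, CCN2 and ANKRD1. The pathway restrains liver growth in mice, and it acts mainly through phosphorylation, so transcript levels of its kinases do not measure its activity.

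TEAD factors bind the hexamer GGAATG, and 300-base windows around transcription start sites (250 bases before to 50 after; RefSeq, build GRCh38.p14) were searched for it on both strands. The windows of CCN2 and ANKRD1 are shown because these targets held the motif more than once, and capitals mark the motif. The CCN2 window is chr6:131951323-131951622 and that of ANKRD1 chr10:90921038-90921337, both on the minus strand and written 5′ to 3′.
CCN2: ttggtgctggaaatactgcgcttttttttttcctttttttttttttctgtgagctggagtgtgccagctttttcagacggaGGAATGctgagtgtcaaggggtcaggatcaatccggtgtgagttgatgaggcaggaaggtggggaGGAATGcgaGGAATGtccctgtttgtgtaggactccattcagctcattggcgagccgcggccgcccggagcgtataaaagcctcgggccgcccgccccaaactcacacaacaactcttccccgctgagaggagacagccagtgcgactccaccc
ANKRD1: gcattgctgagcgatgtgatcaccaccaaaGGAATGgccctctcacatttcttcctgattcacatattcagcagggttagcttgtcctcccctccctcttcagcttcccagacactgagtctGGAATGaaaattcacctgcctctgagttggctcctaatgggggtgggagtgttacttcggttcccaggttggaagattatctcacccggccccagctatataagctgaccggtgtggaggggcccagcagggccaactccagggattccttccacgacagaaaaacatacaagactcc

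The 3 matches of CCN2 began 169, 104 and 95 bases before the start site, and the 2 matches of ANKRD1 began 220 and 128 bases before it. At least 3 matches were present in 0.128% of the 35116 windows of the table, at least 2 in 1.37% and at least 1 in 14.0%. Of the 28 members with a window, 9 held the motif, among them 5 of 11 targets, against 16.7% of all 27305 genes. The members without a window were STK3, TEAD1, TEAD4, CCN1, CRIM1, ARHGEF17, DLC1 and ASAP1. TGFB2, FOXF2, AXL and LATS2 held 1 match, as did the 3 upstream regulators that were higher in both perturbations described below. AMOTL2, AJUBA and AXL each had a further window, at the annotated 5′ end of the gene, that held no match, and their matches lay at start sites within the gene. The 40 bases around the match in those 3 genes are shown for comparison with the targets, with GGAATG or its reverse complement CATTCC in capitals. They lie at chr3:134374494-134374533 (AMOTL2), chr1:214551780-214551819 (PTPN14) and chr14:22976879-22976918 (AJUBA), all on the minus strand.
AMOTL2: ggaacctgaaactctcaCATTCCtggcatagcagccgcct
PTPN14: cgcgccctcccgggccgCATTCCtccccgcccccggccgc
AJUBA: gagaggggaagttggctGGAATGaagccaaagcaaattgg
A match describes letters in a window and is not a measurement of binding.

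Library totals were between 12772991 and 18129816 counts. A floor of 3 counts corresponded to 0.151 to 0.265 CPM. CPM denotes counts per 1000000 of the TMM-scaled library total, on 1 scale over all 12 libraries. Libraries labelled Hep3B held little of the hepatocyte transcripts abundant in HepG2, which goes against their label, and the identity of their cells was not tested. HNF4A, a hepatocyte transcription factor, was present at 8.38 CPM with the CD146 shRNA and 7.23 CPM with the control shRNA on average. The summed level of 10 hepatocyte markers was 8.54 to 70.7 CPM with the CD146 shRNA and 6.89 to 9.24 CPM with the control shRNA, with TTR and AFP at 0 in all control shRNA libraries. In HepG2 it was 59295 to 59916 CPM with CD146 overexpression and 67425 to 70207 CPM with pLVX. Replicate 3 of the CD146 shRNA stood apart with 298 ALB counts, where the other 5 libraries labelled Hep3B had 0 to 5, and no member lost its call in the knockdown without it, while GADD45B gained one (log2 fold change 0.30, edgeR adjusted p = 0.0354).

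MCAM was 20.1, 22.1 and 24.5 CPM with the CD146 shRNA, against 104, 102 and 108 CPM with the control shRNA. With CD146 overexpression it was 2134, 2127 and 2092 CPM, against 25.1, 25.8 and 25.8 CPM with pLVX. The groups did not overlap in either line. The log2 fold change was -2.25 in the knockdown (SE 0.06, edgeR adjusted p = 5.51e-29) and 6.37 in the overexpression (SE 0.04, edgeR adjusted p = 5.55e-67). MCAM overlaps CBL in the annotation.

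The first comparison asked what happened to the pathway when CD146 was lowered. The standard YAP/TAZ targets CCN1, CCN2 and ANKRD1 rose in CD146 shRNA libraries, CCN2 4.07-fold, together with the TAZ gene WWTR1 and with TEAD1, while the YAP1 transcript fell. Of the 36 members, 34 passed the filter on low counts. Of these, 17 rose, 9 fell and 8 did not pass the test, so that 26 of 34 were called, against 55.3% of the 16968 genes tested (26.8% higher and 28.5% lower). The 3 libraries of one group lay wholly above or below those of the other for 28 members, against 59.8% of all genes. The median log2 fold change was 0.24 over the 15 targets tested and 0.14 over the 19 core members tested, against 0.00 over all genes, and the median size of change over all genes was 0.29. LATS2, AMOTL1, AMOTL2 and PTPN14 are both pathway members and reported YAP/TAZ targets. Counted with the targets, they left that median at 0.24, and the core median was then 0.04.

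**Figure D1:**
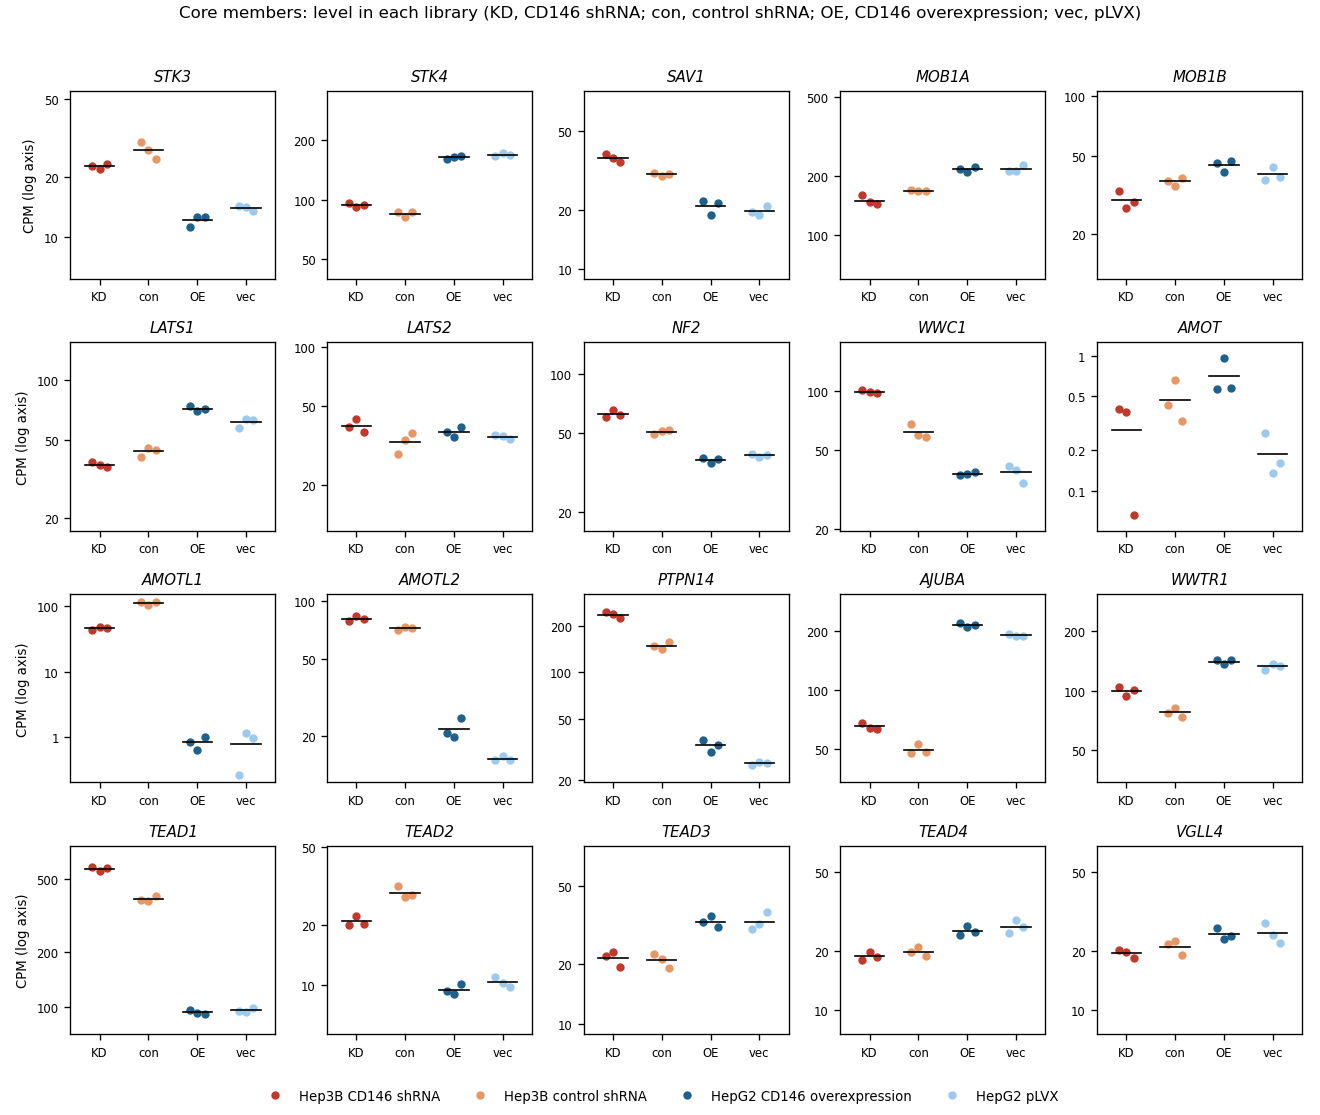
Level of the 20 core members in each library, in CPM on a log axis with a separate range per gene; points are libraries and lines are means of 3. CD146 shRNA (KD) stands left of control shRNA (con) and CD146 overexpression (OE) left of pLVX (vec); TEAD1, WWC1 and PTPN14 are higher and AMOTL1 is lower in all 3 CD146 shRNA libraries than in the control shRNA libraries.

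All 7 kinase cassette genes passed the test with the CD146 shRNA, by small amounts and in both directions. SAV1, LATS2 and STK4 rose, with log2 fold changes of 0.28, 0.27 and 0.14. MOB1B, STK3, LATS1 and MOB1A fell, with log2 fold changes of -0.32, -0.27, -0.22 and -0.17. None reached 0.5 in size, and the cassette median was -0.17. STK4 missed the threshold in all 3 settings of limma on FPKM (adjusted p between 0.129 and 0.195), in edgeR without the filter (adjusted p = 0.0596) and in edgeR without control shRNA replicate 2 (adjusted p = 0.0832). LATS2 missed it in the 3 FPKM settings (adjusted p between 0.0877 and 0.170). SAV1 and MOB1B overlap the genes ATL1 and DCK, which hold at least 10% of their counts, so these values are uncertain. The 4 other genes of at least 5 CPM within 2 Mb of MOB1B were all lower, with a median log2 fold change of -0.28. Around STK3, LATS1 and MOB1A the medians were 0.11, 0.05 and -0.10. Whether MOB1B changed on its own or with its surroundings was not tested.

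Among the upstream regulators, 5 of the 6 tested rose. WWC1 (KIBRA), a scaffold that promotes LATS activation, was 101, 99.0 and 97.8 CPM with the CD146 shRNA and 67.9, 59.8 and 58.6 CPM with the control shRNA (edgeR log2 fold change 0.67 with SE 0.05, adjusted p = 2.64e-14). PTPN14, a phosphatase that binds YAP and holds it in the cytoplasm, was 246, 238 and 223 CPM with the CD146 shRNA, against 148, 141 and 156 CPM with the control shRNA (edgeR log2 fold change 0.67 with SE 0.05, adjusted p = 5.9e-16). In both genes every CD146 shRNA library was above every control shRNA library. AJUBA, a LIM protein that inhibits LATS kinases, NF2 (merlin), an activator of LATS, and AMOTL2, an angiomotin that sequesters YAP, rose by less, with log2 fold changes of 0.40, 0.30 and 0.16. AMOT was at 0.28 CPM with the CD146 shRNA and 0.47 CPM with the control shRNA on average, near the floor, and was not tested.

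AMOTL1, the remaining angiomotin, went the other way. It was 43.1, 46.9 and 46.7 CPM with the CD146 shRNA, against 116, 105 and 113 CPM with the control shRNA (edgeR log2 fold change -1.29 with SE 0.05, adjusted p = 4.78e-23). No CD146 shRNA library reached the lowest control shRNA library. AMOTL1 lies on chromosome 11 (94706431 to 94876753, plus strand, GRCh38), and the 20 other genes of at least 5 CPM within 2 Mb had a median of -0.73 on the log2 scale, and 19 were lower. Whether AMOTL1 changed on its own or with this stretch was not tested.

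Among the nuclear effectors, WWTR1 and TEAD1 rose, TEAD2 fell and TEAD3, TEAD4 and VGLL4 did not pass the test (log2 fold changes 0.04, -0.08 and -0.10). WWTR1, which encodes TAZ, was 104, 94.1 and 101 CPM with the CD146 shRNA and 77.2, 81.1 and 73.8 CPM with the control shRNA (edgeR log2 fold change 0.37 with SE 0.05, adjusted p = 4.87e-08). TEAD1 was 586, 554 and 580 CPM with the CD146 shRNA, against 384, 380 and 404 CPM with the control shRNA (edgeR log2 fold change 0.56 with SE 0.04, adjusted p = 8.33e-15). TEAD1 also lies on chromosome 11 (12674591 to 12944483, plus strand), but it rose where the 13 genes around it had a median log2 fold change of -0.55. TEAD2, which overlaps CD37, averaged 20.9 ± 1.20 CPM with the CD146 shRNA and 29.3 ± 1.94 CPM with the control shRNA (SD, n = 3; log2 fold change -0.49). VGLL4, a TEAD cofactor that competes with YAP, overlaps ATG7.

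**Figure D2:**
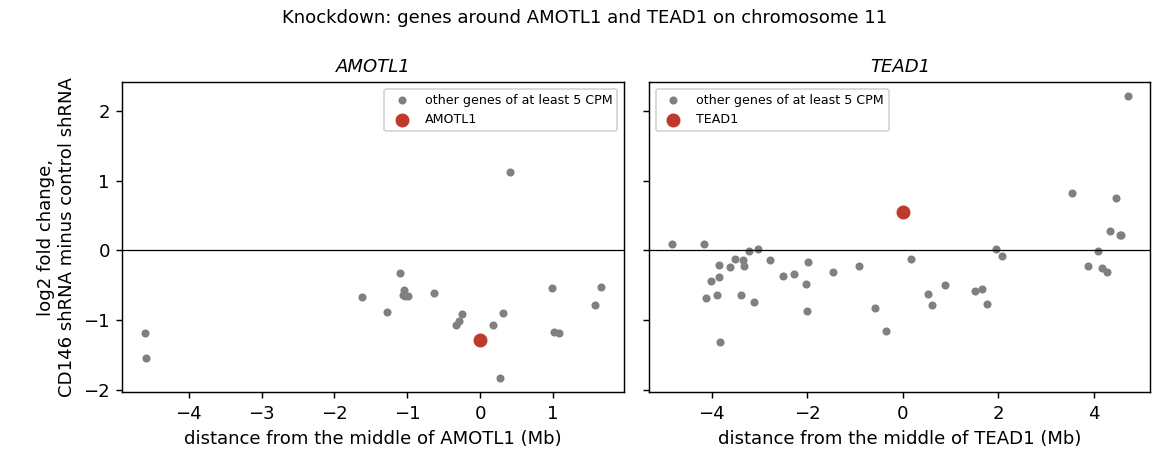
Log2 fold change with the CD146 shRNA against the control shRNA (vertical) for the genes of at least 5 CPM within 5 Mb of AMOTL1 (left) and TEAD1 (right), by distance in Mb; red marks the member and grey the other genes. AMOTL1 lies among 22 genes of which 21 are lower, and TEAD1 lies above 0 where 35 of the 45 genes around it are lower.

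YAP1, the partner of WWTR1, was 84.9, 78.6 and 85.5 CPM with the CD146 shRNA and 141, 138 and 146 CPM with the control shRNA (edgeR log2 fold change -0.78 with SE 0.05, adjusted p = 1.34e-17). Per length, in the authors' FPKM (fragments scaled by gene length and library size), the level of YAP1 was 1.10 ± 0.0217 times that of WWTR1 with the CD146 shRNA and 2.43 ± 0.180 times with the control shRNA (SD, n = 3). The share of TEAD1 in the summed FPKM of the 4 TEAD genes was 70.6% ± 1.77 with the CD146 shRNA and 58.9% ± 1.95 with the control shRNA. YAP1 too lies on chromosome 11, where 7 genes within 2 Mb had a median log2 fold change of -0.46.

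Among the 15 targets tested, 7 rose and 3 fell with the CD146 shRNA. CCN2 (connective tissue growth factor), a secreted matricellular protein, was 105, 116 and 123 CPM with the CD146 shRNA, against 24.6, 30.5 and 29.4 CPM with the control shRNA (edgeR log2 fold change 2.03 with SE 0.06, adjusted p = 1.05e-26). CCN1 (CYR61), of the same protein family, was 101, 114 and 120 CPM with the CD146 shRNA, against 43.6, 54.8 and 52.7 CPM with the control shRNA (edgeR log2 fold change 1.15 with SE 0.06, adjusted p = 4.26e-19). The lowest CD146 shRNA library was above the highest control shRNA library in both, and CCN2 changed more than CCN1. The FPKM ratio of CCN2 to CCN1 was 1.64, 1.61 and 1.61 with the CD146 shRNA, against 0.890, 0.882 and 0.882 with the control shRNA.

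The remaining large rises were in weakly expressed targets. ANKRD1, a nuclear ankyrin repeat protein, was 2.53, 3.09 and 2.37 CPM with the CD146 shRNA and 0.699, 1.84 and 1.36 CPM with the control shRNA (edgeR log2 fold change 1.07 with SE 0.25, adjusted p = 0.000466). AXL, a receptor tyrosine kinase, was 4.24, 4.34 and 3.23 CPM with the CD146 shRNA, against 1.50, 1.78 and 2.44 CPM with the control shRNA (edgeR log2 fold change 1.05 with SE 0.20, adjusted p = 3.14e-05). The groups did not overlap, though the control values spread over more than those of CCN1 and CCN2 relative to their means. ARHGEF17, a guanine nucleotide exchange factor, FJX1, a homologue of the Drosophila kinase four-jointed, and CRIM1, a transmembrane regulator of BMPs, rose by less, with log2 fold changes of 0.45, 0.29 and 0.26. ARHGEF17 and FJX1 lie on chromosome 11. The 37 other genes of at least 5 CPM within 2 Mb of ARHGEF17 had a median log2 fold change of 0.42, and 5 were lower. The 16 such genes around FJX1 had a median of 0.28, and 3 were lower. Around CCN1, CCN2, ANKRD1, AXL and CRIM1 the medians were -0.25, -0.01, 0.07, -0.08 and -0.03. Whether ARHGEF17 and FJX1 changed on their own or with these stretches was not tested. CRIM1 overlaps FEZ2.

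FOXF2, a forkhead factor, NT5E (CD73), an ectonucleotidase, and MYOF (myoferlin), a membrane repair protein, fell, with log2 fold changes of -0.32, -0.20 and -0.18. The 17 other genes of at least 5 CPM within 2 Mb of MYOF had a median of -0.18, and 11 were lower. Around FOXF2 and NT5E the medians were -0.02 and -0.02. Whether MYOF changed on its own or with its surroundings was not tested. F3 (tissue factor), TGFB2, GADD45B, RBMS3 and ASAP1 did not pass the test, with log2 fold changes between -0.15 and 0.24, and DLC1, a GTPase-activating protein, was not tested, with 12 counts in all under the CD146 shRNA and 4 under the control shRNA. Markers of other cell types moved with the knockdown. The 5 endothelial markers summed to 21.7 to 22.7 CPM with the CD146 shRNA and 2.58 to 3.15 CPM with the control shRNA, mostly CDH5, with KDR at 0 in both groups. The 6 fibroblast and stellate markers summed to 88.6 to 108 CPM with the CD146 shRNA, against 53.9 to 62.5 CPM with the control shRNA, and none was at 0 in all libraries of a group. Their part in these results was not tested, and in bulk samples fewer cells of a type and less RNA per cell cannot be told apart. With limma on log2(FPKM + 0.1) without a filter, ANKRD1, AXL, STK3 and NT5E also missed the threshold (adjusted p between 0.0529 and 0.0863).

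**Figure D3:**
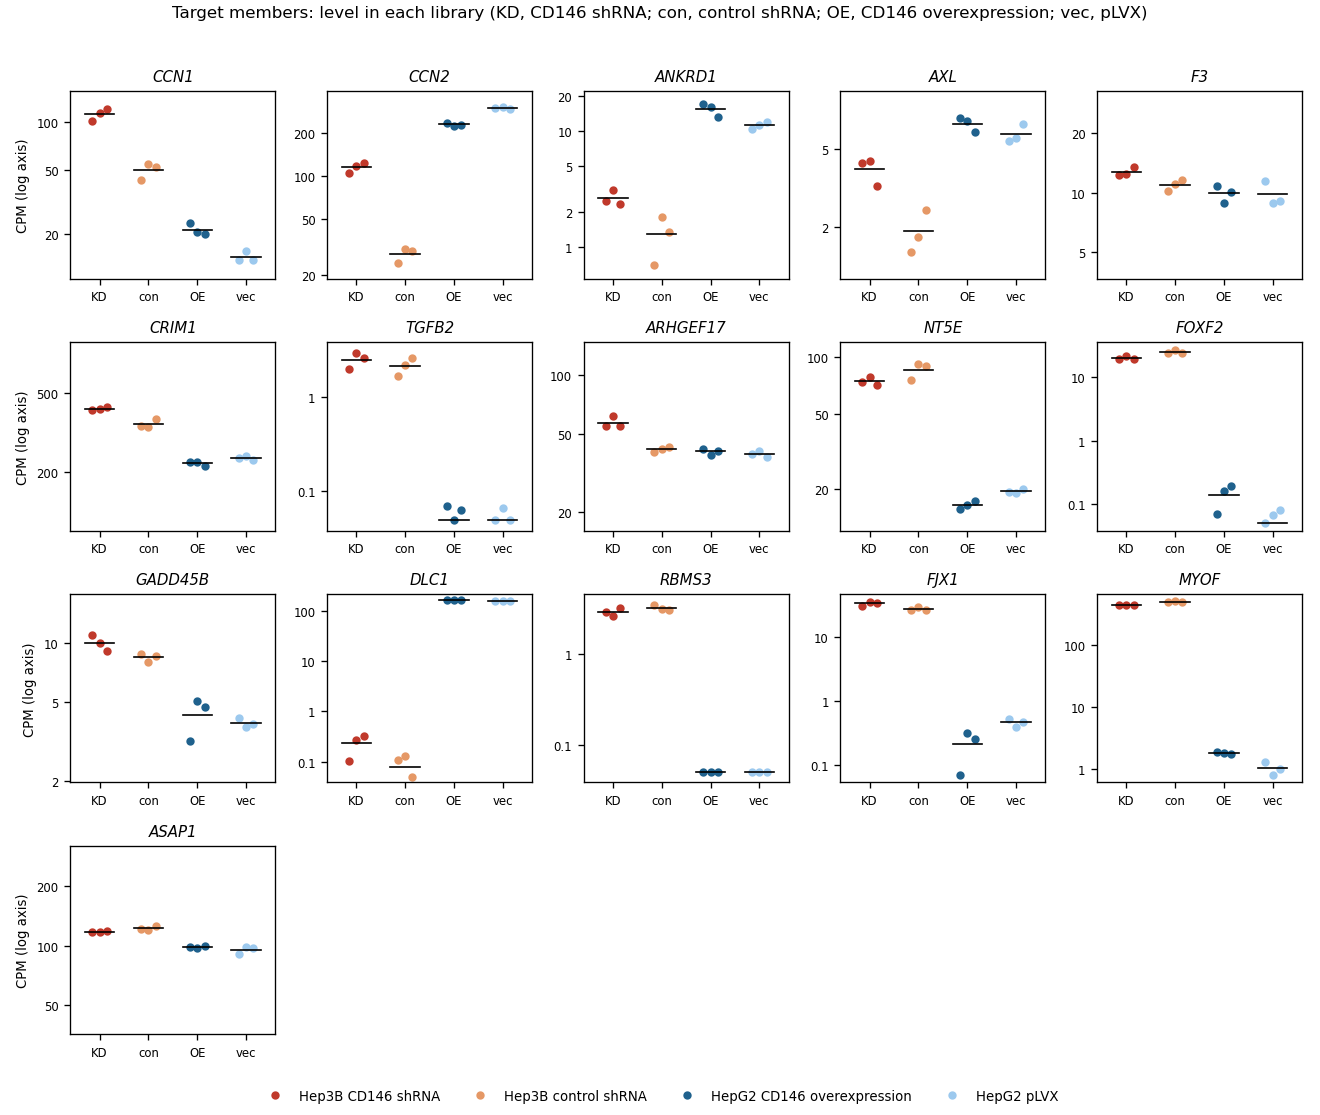
Level of the 16 targets in each library, in CPM on a log axis with a separate range per gene; points are libraries, lines are means of 3, and values under 0.05 CPM are drawn at 0.05. CCN1, CCN2, ANKRD1 and AXL are higher in all 3 CD146 shRNA libraries (KD) than in the control shRNA libraries (con); CCN1 and ANKRD1 are higher and CCN2 is lower with CD146 overexpression (OE) than with pLVX (vec).

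The list of 55 other pathway genes and the list of 24 other targets were read beside the members. Of the 48 other pathway genes tested in the knockdown, 12 rose and 15 fell, with a median log2 fold change of -0.02. That is 56.25% called, near the 55.3% of all genes. The 3 with the smallest adjusted p were YAP1, the phosphatase gene PTPN11 (log2 fold change -0.57) and the TEAD cofactor VGLL3 (log2 fold change 1.14). Of the 23 other targets tested, 10 rose and 7 fell (73.9% called), with a median of 0.11. Among these, FSTL3, an inhibitor of activins, averaged 251 CPM with the CD146 shRNA and 121 CPM with the control shRNA (log2 fold change 1.04), and BIRC5 (survivin) 65.2 CPM with the CD146 shRNA and 98.7 CPM with the control shRNA (log2 fold change -0.60). These 2 targets were chosen after their values were seen.

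The second comparison asked what happened when CD146 was raised in HepG2. CCN1, ANKRD1 and the angiomotin gene AMOTL2 rose and CCN2 fell, with fold changes between 0.763 and 1.47, and no nuclear effector passed the test. Of the 36 members, 31 passed the filter. Of these, 7 rose, 3 fell and 21 did not pass the test, so that 10 of 31 were called, against 19.8% of the 15300 genes tested (9.55% higher and 10.3% lower). The groups did not overlap for 13 members, against 33.1% of all genes. The median log2 fold change was 0.05 over the 12 targets tested and -0.01 over the 19 core members tested, against 0.00 over all genes. With LATS2, AMOTL1, AMOTL2 and PTPN14 counted as targets, the medians were 0.07 over 16 targets and -0.02 over 15 core members.

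In the kinase cassette LATS1 rose and was 73.9, 70.1 and 71.6 CPM with CD146 overexpression and 57.6, 63.6 and 63.2 CPM with pLVX (edgeR log2 fold change 0.22 with SE 0.05, adjusted p = 0.000902). The other 6 cassette genes did not pass the test, with log2 fold changes between -0.21 (STK3) and 0.15 (MOB1B), though MOB1B passed it without overexpression replicate 2 or without pLVX replicate 2 (edgeR adjusted p = 0.0361 and 0.0209). Among upstream regulators, AMOTL2 was 21.0, 19.9 and 25.0 CPM with CD146 overexpression, against 15.1, 15.8 and 15.2 CPM with pLVX (edgeR log2 fold change 0.52 with SE 0.09, adjusted p = 7.97e-06). PTPN14 was 36.5, 30.5 and 33.8 CPM with CD146 overexpression, against 25.1, 26.0 and 25.6 CPM with pLVX (log2 fold change 0.39), and AJUBA was 218, 209 and 215 CPM with CD146 overexpression, against 191, 189 and 188 CPM with pLVX (log2 fold change 0.17). All 3 had every overexpression library above every pLVX library. NF2, WWC1 and AMOTL1 did not pass the test (log2 fold changes -0.08, -0.02 and 0.04). AMOT had 29 counts in the overexpression libraries and 7 in the pLVX libraries, a ratio of 3.79 with a 95% interval of 1.63 to 10.3 for counting error only.

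WWTR1 was 142, 136 and 143 CPM with CD146 overexpression and 128, 137 and 133 CPM with pLVX, and the groups overlapped (edgeR log2 fold change 0.08 with SE 0.04, adjusted p = 0.165). TEAD1 was 96.2, 92.8 and 91.9 CPM with CD146 overexpression, against 95.4, 94.1 and 99.1 CPM with pLVX (edgeR log2 fold change -0.04 with SE 0.04, adjusted p = 0.585). YAP1 had a log2 fold change of 0.07 (SE 0.04, edgeR adjusted p = 0.160). The FPKM ratio of YAP1 to WWTR1 was 2.86 ± 0.0682 with overexpression and 2.87 ± 0.0973 with pLVX (SD, n = 3). The TEAD1 share of the summed TEAD FPKM was 25.9% ± 1.01 with overexpression and 25.8% ± 0.956 with pLVX. A p that misses the threshold does not show that the groups were alike.

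Among the targets, CCN1 was 23.4, 20.6 and 20.3 CPM with CD146 overexpression and 13.8, 15.8 and 13.9 CPM with pLVX (edgeR log2 fold change 0.55 with SE 0.09, adjusted p = 2.69e-06). CCN2 was 236, 225 and 229 CPM with CD146 overexpression, against 300, 306 and 297 CPM with pLVX (edgeR log2 fold change -0.39 with SE 0.03, adjusted p = 7.53e-14). ANKRD1 was 17.2, 16.3 and 13.3 CPM with CD146 overexpression, against 10.5, 11.3 and 12.1 CPM with pLVX (edgeR log2 fold change 0.45 with SE 0.10, adjusted p = 0.000986). None of the 3 had overlapping groups, and CCN2 stood alone among them in being lower. The FPKM ratio of CCN2 to CCN1 was 15.9, 17.3 and 17.8 with overexpression, against 34.4, 30.6 and 33.7 with pLVX.

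MYOF was 1.90, 1.85 and 1.78 CPM with CD146 overexpression and 1.33, 0.805 and 1.03 CPM with pLVX (edgeR log2 fold change 0.82 with SE 0.30, adjusted p = 0.0453). NT5E and CRIM1 fell, with log2 fold changes of -0.24 and -0.10. AXL, F3, ARHGEF17, GADD45B, DLC1 and ASAP1 did not pass the test, with log2 fold changes between 0.03 and 0.16, and DLC1 passed it with limma on filtered FPKM (0.13, adjusted p = 0.0409 on log2(FPKM + 0.1)). TGFB2, FOXF2, RBMS3 and FJX1 were at or near the floor and not tested. The calls of MYOF, NT5E and CRIM1 were lost with DESeq2, without the filter and in the FPKM settings that tested them; leaving out 1 library at a time ended those of MYOF and NT5E in 5 of 6 cases each and that of CRIM1 in 3 of 6. With limma on log2(FPKM + 0.1) without a filter, PTPN14 and ANKRD1 missed the threshold (adjusted p = 0.102 and 0.0716), and PTPN14 also missed it on log2(FPKM + 1) (adjusted p = 0.0538). In those settings 73.3% and 75.2% of the calls over all genes were higher, and 75.4% on filtered log2(FPKM + 0.1), against 48.1% with edgeR.

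Of the 46 other pathway genes tested in HepG2, 6 rose and 1 fell, with a median log2 fold change of 0.04. That is 15.2% called, against 19.8% of all genes. The 3 with the smallest adjusted p were MPDZ, a junction scaffold (log2 fold change 0.49), RASSF4 (0.21) and the kinase gene MAP4K4 (0.13). Of the 21 other targets tested, 6 rose and 3 fell (42.9% called), with a median of 0.09. THBS1 and FSTL3, picked after the values were seen, had log2 fold changes of 0.79 and 0.91. BIRC5 and CDC6 were among the 3 that fell, at -0.16 and -0.20. In the knockdown THBS1 was lower (-0.25). The fibroblast and stellate markers summed to 42.4 to 51.8 CPM with overexpression and 35.8 to 37.6 CPM with pLVX, with no marker at 0 in all libraries. They did not move together: of the 4 tested, 1 was higher, 1 was lower and 2 (COL1A1 and COL1A2) did not pass the test. Of the 5 cholangiocyte markers, the 3 tested were all higher with overexpression. The part of these markers in the results was not tested.

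**Figure D4:**
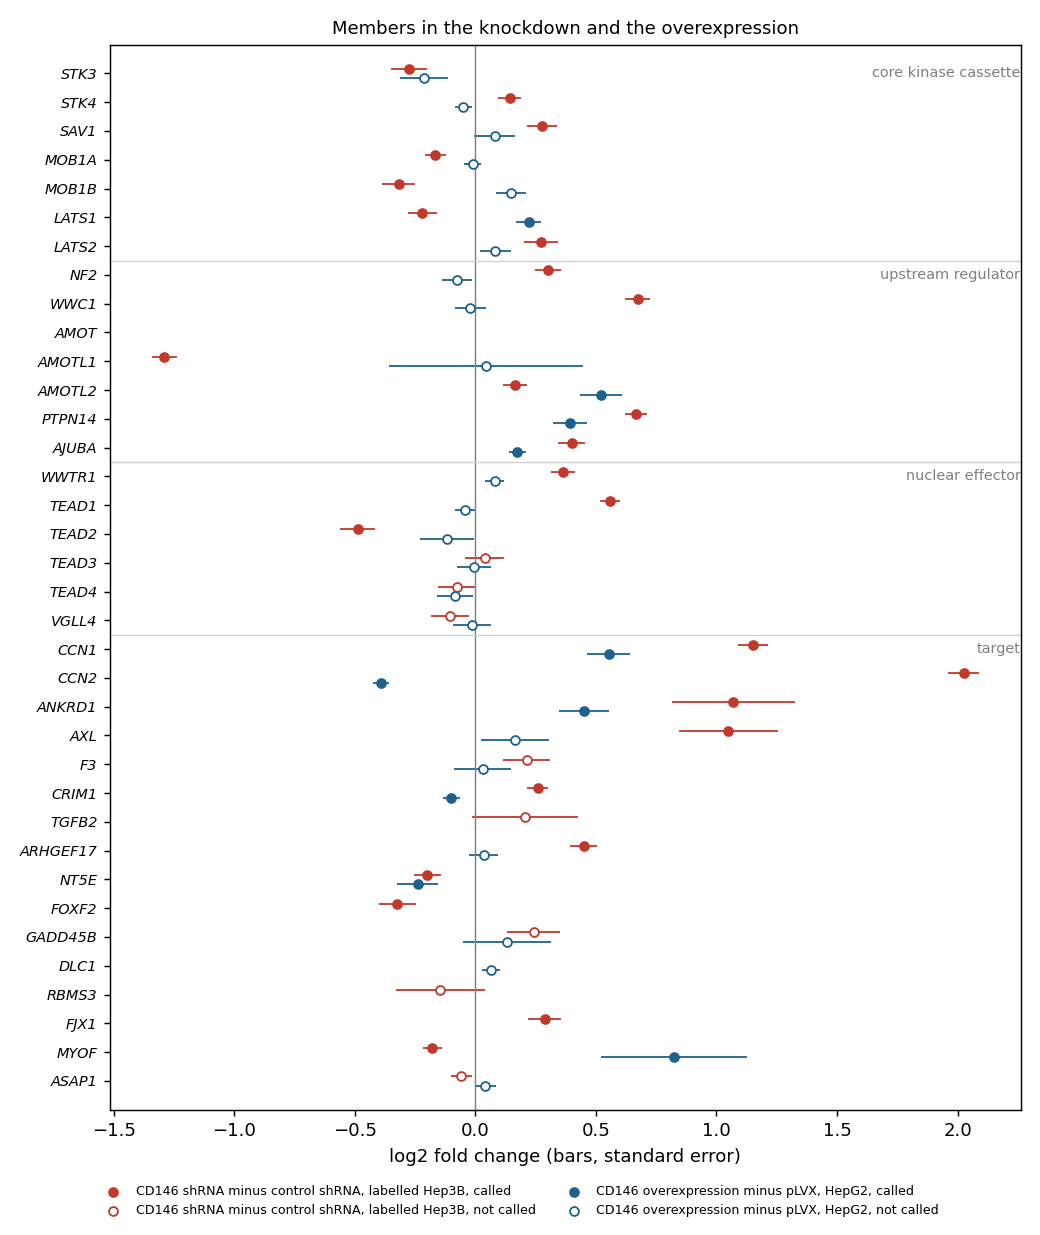
Log2 fold change of each member with its standard error, for CD146 shRNA against control shRNA (red) and CD146 overexpression against pLVX (blue); filled points passed the test and open points did not, and members not tested have no point. CCN2 lies at 2.03 in the knockdown and -0.39 in the overexpression, while CCN1, ANKRD1, AMOTL2, PTPN14 and AJUBA lie above 0 in both.

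The knockdown and the overexpression share no library, so their calls were set side by side. Of 30 members tested in both, 10 were called in both, which is 38.5% of the members called in the knockdown and every member called in the overexpression. Over all genes, 1797 of 13559 tested in both (13.3%) were called in both, 19.1% of the knockdown calls and 59.2% of the overexpression calls. CCN1, ANKRD1, AMOTL2, PTPN14 and AJUBA were higher in both, although CD146 was lowered in one and raised in the other, and NT5E was lower in both. CCN2 and CRIM1 were higher with the CD146 shRNA and lower with overexpression, and LATS1 and MYOF were lower with the CD146 shRNA and higher with overexpression. The overexpression calls of NT5E, CRIM1 and MYOF were lost with DESeq2 and without the filter, and the knockdown groups of NT5E overlapped, so these patterns are uncertain. Among the 1797 genes, 453 were higher in both, 603 lower in both and 741 opposite.

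The difference between the responses was tested in a fit of all 12 libraries, as the effect of higher CD146 in HepG2 (overexpression minus pLVX) minus that in libraries labelled Hep3B (control shRNA minus CD146 shRNA). Of 35 members tested, 16 had a positive and 5 a negative difference that passed the test, against 36.4% of 18870 genes called (17.2% higher and 19.2% lower). CCN1 and CCN2 had the largest positive differences among the called members, 1.71 and 1.64 on the log2 scale (SE 0.11 and 0.07, edgeR adjusted p = 1.16e-18 and 7.08e-26), followed by ANKRD1 (1.53), AXL (1.22) and PTPN14 (1.06). AMOTL1 had the most negative one, -1.25 (SE 0.38, edgeR adjusted p = 0.00633), and it missed the threshold without pLVX replicate 2 (-0.86, edgeR adjusted p = 0.177). In HepG2 AMOTL1 had only 36 counts with overexpression and 32 with pLVX, so its effect there was poorly measured. The calls of 4 others were also lost under alternatives. MYOF (0.65) missed the threshold with DESeq2, without the filter, with the replicate block (adjusted p = 0.0542) and without CD146 shRNA replicate 1, any overexpression replicate or pLVX replicate 2 or 3, and its difference was 0.47 without pLVX replicate 2. NF2 (0.23) missed it with DESeq2, without the filter and without CD146 shRNA replicate 2, overexpression replicate 1 or pLVX replicate 2. CRIM1 (0.16) missed it without control shRNA replicate 2, overexpression replicate 1 or 2, or pLVX replicate 3. MOB1A (-0.17) missed it without CD146 shRNA replicate 3, control shRNA replicate 1, overexpression replicate 2 or pLVX replicate 3. LATS1 showed opposite calls in the knockdown and the overexpression, and its difference was 0.00. Line and method of perturbation cannot be told apart in this contrast.

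The third comparison set the control libraries of the lines beside each other. The control shRNA libraries labelled Hep3B had more TEAD1, TEAD2, AMOTL1, AMOTL2, PTPN14 and CCN1 transcript than the HepG2 pLVX libraries, and less CCN2, ANKRD1, AXL, AJUBA, WWTR1 and YAP1. Of 35 members tested, 19 were higher, 13 lower and 3 not called (LATS2, F3 and ARHGEF17), so that 32 of 35 were called, against 85.2% of 17401 genes (43.0% higher and 42.1% lower). F3 and ARHGEF17 (log2 fold changes 0.13 and 0.03) were called higher in all 3 settings of limma on FPKM, at 0.47 and 0.38 on log2(FPKM + 0.1) (adjusted p = 0.00717 and 0.000531). LATS2 (-0.13) was called lower without control shRNA replicate 3 (-0.20, edgeR adjusted p = 0.00896). The groups did not overlap for 30 of the members tested, against 85.0% of all genes. TGFB2, FOXF2, RBMS3, FJX1, DLC1 and AMOTL1 passed the filter only through the group where they were high. Their calls and lack of overlap thus follow from the filter, though they enter these counts and the medians that follow. The median log2 fold change was 0.80 over 16 targets and -0.13 over the 19 core members tested, against 0.02 over all genes, whose median size of change was 0.91. With LATS2, AMOTL1, AMOTL2 and PTPN14 counted as targets, the medians were 1.41 over 20 targets and -0.26 over 15 core members. Line, vector and handling cannot be told apart here, and these libraries also serve as controls in the comparisons above. On FPKM, which carry no TMM scaling, the median of all genes was 0.36 and 63.6% of calls were higher, against 50.5% with edgeR.

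**Figure D5:**
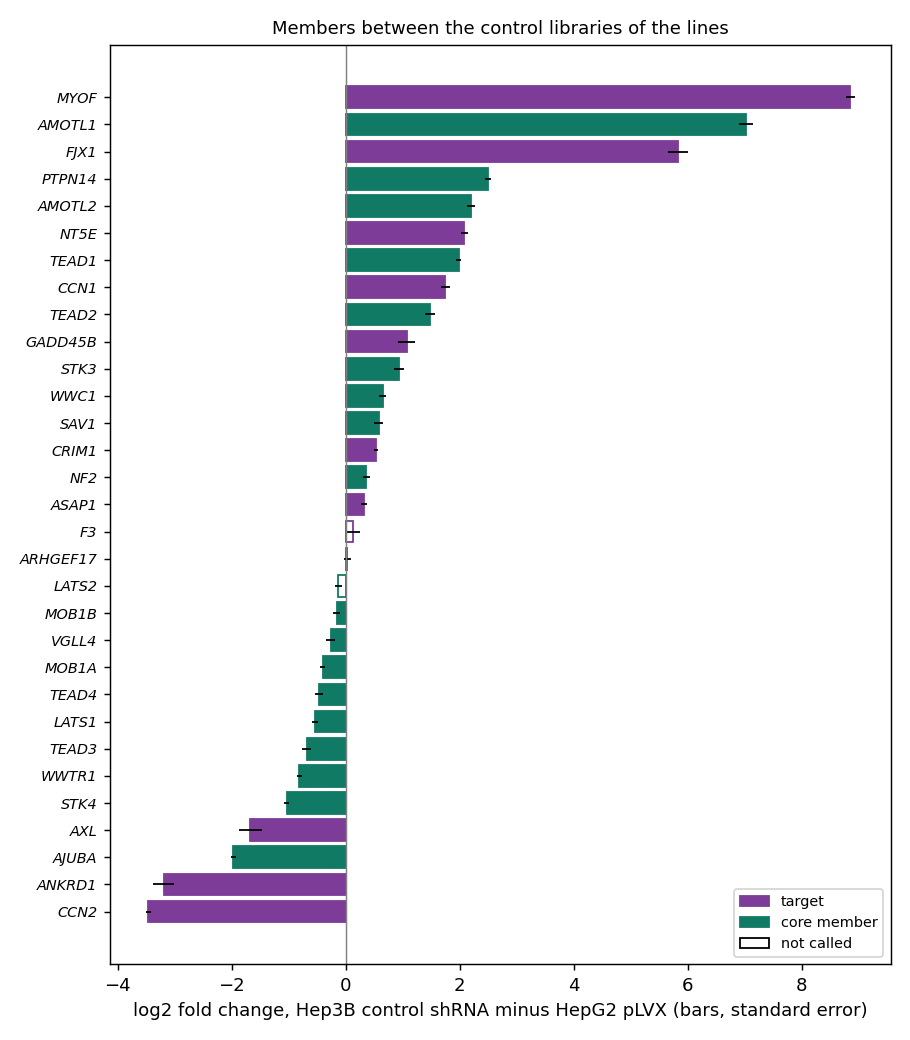
Log2 fold change of the members between control shRNA libraries labelled Hep3B and HepG2 pLVX libraries, with standard errors; purple bars are targets, green bars core members and open bars did not pass the test. TGFB2, FOXF2, RBMS3 and DLC1, which had 0 to 4 counts in one of the groups, and AMOT are not drawn; the values run from -3.46 for CCN2 to 8.85 for MYOF.

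In the kinase cassette, STK3 was 30.3, 27.6 and 24.8 CPM in control shRNA libraries and 14.3, 14.2 and 13.5 CPM in pLVX libraries (edgeR log2 fold change 0.94 with SE 0.09, adjusted p = 1.78e-18). STK4, its paralogue, was 85.9, 82.0 and 86.5 CPM in control shRNA libraries, against 166, 173 and 168 CPM in pLVX libraries (edgeR log2 fold change -1.03 with SE 0.04, adjusted p = 3.92e-42). The paralogues thus differed in opposite directions, with no overlap of the groups. SAV1 was 30.6, 29.6 and 30.3 CPM in control shRNA libraries, against 19.4, 18.9 and 20.9 CPM in pLVX libraries (log2 fold change 0.58), and LATS1 was 40.9, 45.4 and 44.5 CPM in control shRNA libraries, against 57.6, 63.6 and 63.2 CPM in pLVX libraries (log2 fold change -0.54). MOB1A and MOB1B were lower in control shRNA libraries, with log2 fold changes of -0.41 and -0.16. On log2(FPKM + 0.1) MOB1A was at -0.05 and missed the threshold (limma adjusted p = 0.231), as in the other FPKM settings. MOB1B turned to 0.20 there (limma adjusted p = 0.0482), and it missed the threshold with DESeq2, without the filter and without control shRNA replicate 2 or pLVX replicate 2 (-0.11 and -0.09). LATS1 was at -0.18 on unfiltered log2(FPKM + 0.1) and missed the threshold (limma adjusted p = 0.0604).

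Among the upstream regulators, AMOTL1 had the largest difference of those tested. It was 116, 105 and 113 CPM in control shRNA libraries and 0.266, 1.14 and 0.955 CPM in pLVX libraries (edgeR log2 fold change 7.03 with SE 0.12, adjusted p = 1.24e-78). AMOTL1 passed the filter only through the control shRNA libraries, so this call follows from the filter. AMOTL2 was 70.5, 73.9 and 72.9 CPM in control shRNA libraries, against 15.1, 15.8 and 15.2 CPM in pLVX libraries (edgeR log2 fold change 2.20 with SE 0.07, adjusted p = 4.74e-54). AMOT was near the floor in both, with 24 counts in control shRNA libraries and 7 in pLVX libraries. Per length, AMOTL1 and AMOTL2 stood at 12.3 and 12.4 FPKM in control shRNA libraries, and at 0.0700 and 2.11 FPKM in pLVX libraries. PTPN14 was 148, 141 and 156 CPM in control shRNA libraries, against 25.1, 26.0 and 25.6 CPM in pLVX libraries (log2 fold change 2.50), and WWC1 was 67.9, 59.8 and 58.6 CPM in control shRNA libraries, against 41.8, 39.8 and 34.2 CPM in pLVX libraries (log2 fold change 0.65). AJUBA was the exception, with 47.8, 53.0 and 48.3 CPM in control shRNA libraries, against 191, 189 and 188 CPM in pLVX libraries (edgeR log2 fold change -1.97 with SE 0.05, adjusted p = 1.56e-64).

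The TEAD family differed in its makeup. TEAD1 was 384, 380 and 404 CPM in control shRNA libraries and 95.4, 94.1 and 99.1 CPM in pLVX libraries (edgeR log2 fold change 1.98 with SE 0.04, adjusted p = 1.08e-68). TEAD2 was 31.6, 28.0 and 28.5 CPM in control shRNA libraries, against 10.9, 10.3 and 9.71 CPM in pLVX libraries (log2 fold change 1.48), and TEAD3 was 22.6, 21.2 and 19.1 CPM in control shRNA libraries, against 30.1, 31.9 and 36.6 CPM in pLVX libraries (log2 fold change -0.69). TEAD4 and VGLL4 were lower by less (log2 fold changes -0.47 and -0.26). On log2(FPKM + 0.1) TEAD4 was at -0.10 and missed the threshold (limma adjusted p = 0.225), as in the other FPKM settings, and VGLL4 turned to 0.09 there and missed the threshold with DESeq2 (adjusted p = 0.0843). TEAD1 made up 58.9% of the summed TEAD FPKM in control shRNA libraries, where TEAD2, TEAD3 and TEAD4 made up 15.9%, 11.1% and 14.1%. In pLVX libraries TEAD4 (33.4%), TEAD3 (30.9%) and TEAD1 (25.8%) lay close together. WWTR1 was 77.2, 81.1 and 73.8 CPM in control shRNA libraries, against 128, 137 and 133 CPM in pLVX libraries (edgeR log2 fold change -0.82 with SE 0.05, adjusted p = 1.87e-32), and YAP1 was also lower (log2 fold change -1.06).

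The best-known targets did not differ in 1 direction. CCN1 was 43.6, 54.8 and 52.7 CPM in control shRNA libraries and 13.8, 15.8 and 13.9 CPM in pLVX libraries (edgeR log2 fold change 1.75 with SE 0.08, adjusted p = 4.23e-40). CCN2 was 24.6, 30.5 and 29.4 CPM in control shRNA libraries, against 300, 306 and 297 CPM in pLVX libraries (edgeR log2 fold change -3.46 with SE 0.05, adjusted p = 3.87e-84). ANKRD1 was 0.699, 1.84 and 1.36 CPM in control shRNA libraries, against 10.5, 11.3 and 12.1 CPM in pLVX libraries (edgeR log2 fold change -3.19 with SE 0.18, adjusted p = 2.11e-31). CCN1 was thus higher while CCN2 and ANKRD1 were lower, each without overlap of the groups, and AXL was 1.50, 1.78 and 2.44 CPM in control shRNA libraries, against 5.49, 5.70 and 6.69 CPM in pLVX libraries (log2 fold change -1.67).

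Several targets were present in 1 line and near the floor in the other. MYOF was 488, 502 and 491 CPM in control shRNA libraries and 1.33, 0.805 and 1.03 CPM in pLVX libraries (edgeR log2 fold change 8.85 with SE 0.08, adjusted p = 1.92e-101). FJX1 was 26.7, 29.3 and 26.7 CPM in control shRNA libraries, against 0.531, 0.403 and 0.478 CPM in pLVX libraries (log2 fold change 5.82). RBMS3, an RNA-binding protein, was 3.49, 3.09 and 3.04 CPM in control shRNA libraries and 0 CPM in all pLVX libraries. It had 168 counts over the control shRNA libraries and 0 over the pLVX libraries, at least 41.5-fold higher against a floor of 3 counts over the group. TGFB2, a TGF-beta ligand, was 1.67, 2.17 and 2.60 CPM in control shRNA libraries and 0, 0.0671 and 0 CPM in pLVX libraries. It had 112 counts in control shRNA libraries against 1 in pLVX libraries, a ratio of 83.1 with a 95% counting interval of 14.6 to 3310. FOXF2 was 23.9, 26.9 and 23.7 CPM in control shRNA libraries and 0, 0.0671 and 0.0796 CPM in pLVX libraries. It had 1290 counts in control shRNA libraries against 2 in pLVX libraries, a ratio of 478 with an interval of 132 to 3955. DLC1 ran the other way, at 0.107, 0.132 and 0 CPM in control shRNA libraries and 154, 159 and 155 CPM in pLVX libraries, with 4 counts in control shRNA libraries against 6059 in pLVX libraries, 2042-fold lower with an interval of 797 to 7497.

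Other targets differed by less. NT5E was 75.7, 91.4 and 89.4 CPM in control shRNA libraries and 19.5, 19.3 and 20.1 CPM in pLVX libraries (edgeR log2 fold change 2.08 with SE 0.07, adjusted p = 8.41e-53). GADD45B, a stress-induced gene, was 8.81, 7.96 and 8.63 CPM in control shRNA libraries, against 4.16, 3.76 and 3.90 CPM in pLVX libraries (log2 fold change 1.07), and CRIM1 was 340, 336 and 373 CPM in control shRNA libraries, against 236, 241 and 230 CPM in pLVX libraries (log2 fold change 0.53). ASAP1, an ARF GTPase-activating protein, and NF2 in the core were higher by 0.32 and 0.36 on the log2 scale. Per length, MYOF (64.5 FPKM), CRIM1 (53.3 FPKM) and TEAD1 (40.3 FPKM) led the members in control shRNA libraries, and CCN2 (114 FPKM), MOB1A (30.0 FPKM) and CRIM1 (28.9 FPKM) led in pLVX libraries.

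Of the 49 other pathway genes tested between the control libraries, 19 were higher and 24 lower, with a median log2 fold change of -0.17. That is 87.8% called, near the 85.2% of all genes. The 3 with the smallest adjusted p were MAP4K4 (log2 fold change -2.64), RASSF4 (-6.11) and the protocadherin gene FAT1 (-1.97). Of the 23 other targets tested, 15 were higher and 8 lower (100% called, against 85.2% of all genes), with a median of 1.06. Among them FSTL1 and LOXL2 had 25 and 26 counts in pLVX libraries and passed the filter only through the control shRNA libraries. Their calls thus follow from the filter.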

How the data were processed

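The authors deposited raw counts for each Ensembl gene ID and FPKM rounded to 2 decimals. HTSeq 0.6.1, HISAT2 2.2.1 and cutadapt 1.9.1 are listed in the submitters' processing notes. Genome build, annotation and strand setting are not given in the sources used here, and 25 of the 36 members overlap another gene in GENCODE version 29 (GRCh38), whose reads may have been split. Counts were tested by quasi-likelihood in edgeR 4.0.16 (R 4.3.3; TMM, filterByExpr, 2-sided, Benjamini-Hochberg over all genes tested), per line, on the 6 control libraries, or on all 12 for the difference. An adjusted p under 0.05 was called; SE was obtained from the fold change and its F statistic. Alternatives were DESeq2 1.42.0, its size factors, no filter, limma 3.58.1 on FPKM, a replicate block, a joint fit and omission of each library. Replicates differed beyond counting noise. The code recovered known changes planted in well-counted genes of simulated libraries, where all genes had the same spread. That run did not cover members with few counts. An exact 2-sided permutation of 3 against 3 libraries gives no p below 0.1. The floor of 3 counts and the 95% intervals cover counting error only.

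Members and lists were chosen with earlier results of these data known. Every library is given for called members with a log2 fold change of at least 0.5 in size and 1 CPM in the higher group and for WWTR1, TEAD1, CCN1, CCN2 and ANKRD1; LATS1, PTPN14, AJUBA, MCAM and YAP1 were also given where shown. Outside the members, the 3 other pathway genes with the smallest adjusted p were named. Cholangiocyte and leukocyte markers were also summed: cholangiocyte markers were 149 to 153 CPM with the CD146 shRNA, 171 to 186 CPM with the control shRNA, 519 to 535 CPM with overexpression and 392 to 409 CPM with pLVX, and leukocyte markers reached at most 4.40 CPM. Other targets are given by counts and a few examples.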

Additional observations from a re-analysis of the deposited data

Results flagged for a closer look

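The effect of higher CD146 in HepG2 (overexpression minus pLVX) was set against that in libraries labelled Hep3B (control shRNA minus CD146 shRNA). By an edgeR contrast over all 12 libraries, the effects differed for 21 of the 35 members tested. Over all genes, 36.4% of the 18870 tested passed the same contrast. The HepG2 effect was above the Hep3B effect, on the log2 scale, for CCN1 (1.71), CCN2 (1.64), ANKRD1 (1.53), AXL (1.22), PTPN14 (1.06), AMOTL2 (0.69), WWC1 (0.66), MYOF (0.65), AJUBA (0.58), TEAD1 (0.52), ARHGEF17 (0.49), WWTR1 (0.45), SAV1 (0.36), LATS2 (0.36), NF2 (0.23) and CRIM1 (0.16). It was below it for AMOTL1 (-1.25), TEAD2 (-0.60), STK3 (-0.49), NT5E (-0.43) and MOB1A (-0.17). Of these calls, that of MYOF was lost with DESeq2, without the filter, with the replicate block and in 6 of the 12 fits that leave out 1 library. NF2 was lost with DESeq2, without the filter and in 3 such fits, CRIM1 and MOB1A in 4 each, and AMOTL1 without pLVX replicate 2. In HepG2 AMOTL1 had only 36 counts with overexpression and 32 with pLVX, so its effect there was poorly measured. CCN2 and CRIM1 moved against CD146 in both lines, higher with the CD146 shRNA and lower with overexpression, and differed in size. MYOF moved with CD146 in both lines, lower with the CD146 shRNA and higher with overexpression. CCN1, ANKRD1, AMOTL2, PTPN14 and AJUBA were higher in both perturbed groups, and NT5E was lower in both. The effects of higher CD146 on these genes thus had opposite signs in the lines. The directions of CRIM1, MYOF and NT5E are uncertain, because their calls in HepG2 were lost with DESeq2 and without the filter. The knockdown groups of NT5E also overlapped.

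Line and method of perturbation cannot be told apart in these values. The summed hepatocyte markers were 8.54 to 70.7 CPM in CD146 shRNA libraries and 6.89 to 9.24 CPM in control shRNA libraries, against 59295 to 59916 CPM with overexpression and 67425 to 70207 CPM with pLVX, and their part in the differences was not tested.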

How the results depend on the processing

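In libraries labelled Hep3B and between the control libraries, counts of calls over all genes stayed within 1.5 times the reported ones in all settings tried. In HepG2 they did not. DESeq2 called 684 genes higher and 930 lower. Limma on log2(FPKM + 0.1) without a filter called 754 higher and 275 lower, and lower calls were 391 on log2(FPKM + 0.1) and 400 on log2(FPKM + 1) with a filter, against 1461 higher and 1576 lower with edgeR. Of the 3 members lower in HepG2, 1 remained called (CCN2) with DESeq2, in the 3 FPKM settings, without the filter and in the fit of all 12 libraries, and 1 to 2 when a library was left out. Members called higher in HepG2 numbered 4 on unfiltered FPKM, and members lower between the control libraries numbered 8 there. The cause was not tested. The titles' numbers did not pair the libraries (correlations of same-numbered deviations between -0.003 and 0.033, though in the knockdown each library correlated best with its own number). With the replicate block, 9543 genes were called in the knockdown, 2947 in HepG2 and 14712 between the control libraries, and the block ended the calls of CRIM1 and MYOF in HepG2 and of MYOF in the difference and no other.

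Directions turned mostly for small values. The call of MOB1B between the control libraries also turned, from lower with edgeR (-0.16, adjusted p = 0.0178) to higher on filtered log2(FPKM + 0.1) (limma adjusted p = 0.0482). AMOTL1 in HepG2 had the widest of the ranges given below. On FPKM, in which TMM scaling plays no part, TEAD3 was -0.00486 or -0.00429 in the knockdown. In HepG2, on log2(FPKM + 0.1) and log2(FPKM + 1), STK4 was 0.0235 and 0.0214, MOB1A 0.0592 and 0.0575, WWC1 0.0514 and 0.0403, TEAD1 0.0296 and 0.0266, TEAD3 0.0732 and 0.0668, and VGLL4 0.0524 and 0.0401. Between the control libraries MOB1B was 0.199 and 0.165, LATS2 0.218 and 0.190, and VGLL4 0.0892 and 0.0692, with the median of all genes at 0.36 and 0.27. The difference for LATS1 was -0.00365 with DESeq2 and -0.00128 without the filter. With 1 library left out, TEAD3 ranged from -0.0321 to 0.102 in the knockdown. In HepG2 the ranges were -0.0314 to 0.0217 for MOB1A, -0.0973 to 0.0324 for WWC1, -0.314 to 0.425 for AMOTL1, -0.0596 to 0.0766 for TEAD3, -0.0847 to 0.0725 for VGLL4 and -0.0423 to 0.147 for F3. In the difference they were -0.0413 to 0.0389 for LATS1, -0.0196 to 0.117 for TEAD3 and -0.0518 to 0.0245 for ASAP1. Of 1913 values under alternative settings, 1760 kept their direction and side of the threshold.

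Depth limits AMOT, DLC1 in libraries labelled Hep3B, and TGFB2, FOXF2, RBMS3 and FJX1 in HepG2, where a difference was not detectable by the fits. In HepG2, AMOTL1 and MYOF were tested on few counts. AMOTL1 had 36 with overexpression and 32 with pLVX, and MYOF had 78 and 40.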
